A study of Mus musculus with 7 samples.

Results

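Interferon-stimulated genes are the genes that cells switch on when interferons bind their receptors, and 41 of them, chosen by symbol, were followed here through the mouse lung. Of the 41, 39 had a row among the 31253 genes of the deposited tables, and Mx1 and Mx2 were not analysed here. Lung cells came from 3 Smad4fl/fl samples, with floxed alleles of Smad4 and no Cre, and from 4 Smad4iko samples, with the same alleles and Rosa26-creERT2. All samples, controls included, had been given tamoxifen (75 mg/kg, 5 doses into the peritoneum, the first on day 21 and the last on day 26 after birth), and the outer lung was collected at 8 weeks of age. The controls were littermates without Cre. The creERT2 transgene sits at the broadly active Rosa26 locus, so deletion was not directed to a single cell type, and an effect of Cre itself cannot be told apart from loss of Smad4. Single cells were measured with 10x Genomics 3′ RNA sequencing, 1 library per sample, and the unit throughout is the UMI, a molecular barcode that counts 1 captured RNA molecule. The labels do not say that each sample is a separate mouse, so p-values measure the spread between these samples, which may be partly technical.

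Type I interferons bind Ifnar1 and Ifnar2, and the kinases Jak1 and Tyk2 then activate a complex that includes Stat2 and Irf9 and binds the interferon-stimulated response element (ISRE) upstream of target genes. Interferon gamma has its own receptor and acts through a different element, the gamma-activated site (GAS). The products block viral translation, degrade viral RNA, restrict entry and sense foreign nucleic acid, and in the lung they form an early barrier to respiratory viruses. Smad4 is the shared partner of the receptor-activated SMAD proteins in the TGF-beta and BMP pathways.

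The promoters of several members are shown because they hold the sequence that interferon signalling reads. Windows came from RefSeq on GRCm38.p6 and covered the 250 bases before the transcription start of 31 of the 39 members. The ISRE core was searched as GAAA, any 2 bases and GAAA again, with its reverse complement TTTC, any 2 bases and TTTC, so that both strands were covered. GAS was searched as TTC, any 3 bases and GAA, which reads alike on both strands. The ISRE core was present in 18 of 31 members (58.1%) and in 936 of 27025 genes of the table (3.46%). GAS was present in 6 of 31 members (19.4%) and in 8.13% of all genes. A match describes letters and not bound protein. The last 150 bases before the start are printed 5′ to 3′ on the gene's own strand, with every ISRE core in capitals, for Isg15 (chr4:156200819-156200968, minus strand), Ifit1 (chr19:34640739-34640888, plus strand), Rsad2 (chr12:26456453-26456602, minus strand), Oas3 (chr5:120777660-120777809, minus strand), Ifi206 (chr1:173491319-173491468, minus strand), Ifi208 (chr1:173673515-173673664, plus strand) and Ifi214 (chr1:173535958-173536107, minus strand).
Isg15: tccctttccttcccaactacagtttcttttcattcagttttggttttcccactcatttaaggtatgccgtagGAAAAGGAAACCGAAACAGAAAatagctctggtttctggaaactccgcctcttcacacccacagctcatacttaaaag
Ifit1: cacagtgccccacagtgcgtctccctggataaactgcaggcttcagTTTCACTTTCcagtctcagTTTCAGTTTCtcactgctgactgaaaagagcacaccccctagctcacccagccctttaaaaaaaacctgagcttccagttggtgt
Rsad2: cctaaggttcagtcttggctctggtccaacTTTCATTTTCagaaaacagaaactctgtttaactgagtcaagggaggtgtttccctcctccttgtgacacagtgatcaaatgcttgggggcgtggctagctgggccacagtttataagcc
Oas3: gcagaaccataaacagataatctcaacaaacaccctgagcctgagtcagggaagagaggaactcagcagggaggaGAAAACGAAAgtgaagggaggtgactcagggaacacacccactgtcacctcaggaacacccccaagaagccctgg
Ifi206: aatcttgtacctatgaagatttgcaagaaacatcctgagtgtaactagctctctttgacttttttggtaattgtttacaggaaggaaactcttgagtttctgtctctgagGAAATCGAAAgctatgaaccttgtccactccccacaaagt
Ifi208: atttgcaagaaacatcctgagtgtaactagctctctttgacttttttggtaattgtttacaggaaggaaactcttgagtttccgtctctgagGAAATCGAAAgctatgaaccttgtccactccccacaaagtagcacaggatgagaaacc
Ifi214: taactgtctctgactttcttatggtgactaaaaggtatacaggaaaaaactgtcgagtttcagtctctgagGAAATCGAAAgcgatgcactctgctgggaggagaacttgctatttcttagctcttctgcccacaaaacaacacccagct
Isg15 held 3 overlapping matches and Ifit1 held 2. The windows of Ifi206 and Ifi208, which both lie in the HIN-200 cluster with Ifi214 and Ifi213 between them, shared an identical run of 182 bases of 250, and Ifi206 and Ifi214 shared a longest run of 21 bases. HIN-200, IFIT and OAS genes belong to families of related copies, and how counting split reads among related copies was not tested, so the values of single members of these families are uncertain.

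Each library held 46449235 to 66557262 UMIs, and 49711 cells were kept, 6384 to 8140 per library. Cells were assigned by 8 marker genes per cell type, with no interferon-stimulated member among the markers, and tests were run in the 11 cell types whose smallest library held 30 cells or more. In each of the 11, all 8 markers were higher than the mean of the other types. Smad4 UMIs in T cells were 131, 129 and 127 CPM (counts per 1000000 UMIs of that library and cell type) in the Smad4fl/fl libraries and 85.7, 83.9, 58.1 and 67.4 CPM in the Smad4iko libraries, with no overlap. Which exons are floxed is not given in the sources used here, and 3′ UMIs outside the deleted part do not measure deletion. Smad4iko 3 and 4 lay beyond the other 5 libraries on the first principal component in 10 of the 11 cell types, with the members left out. RNA of 8 erythroid markers in T cells summed to 4767 and 3377 CPM in these libraries and 1.37 to 357 CPM in the others. Smad4fl/fl 3 and Smad4iko 3 were female by Xist and Ddx3y UMIs. Many results below are therefore given library by library, always in the order Smad4fl/fl 1 to 3 and then Smad4iko 1 to 4. Others are given as the range over each group, which does not show where single libraries lie.

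In T cells, 34 of the 37 members that passed the filter on low counts had a positive difference, that is, higher in Smad4iko, but none passed the test. The median log2 difference was 0.33 over the 37 members and -0.00 over all 11809 genes tested. With edgeR's quasi-likelihood test and Benjamini-Hochberg adjustment over all genes, 0 members were called, where 0.0423% of all genes were. At an unadjusted p under 0.05, 15 members were higher and 0 lower, beside 5.89% and 3.64% of all genes. In 12 members the 4 Smad4iko libraries all lay above the 3 Smad4fl/fl libraries, beside 4.34% of all genes, and in 0 members all lay below, beside 5.37%. They were Ifit3, Ifit1bl1, Oas2, Oas3, Usp18, Dhx58, Ifi204, Ifi214, Rsad2, Cmpk2, Isg20 and Xaf1. DESeq2, run as an alternative, called 2 members, Ifit3 and Ifi204, and 0.992% of all genes. Of 37 members, 26, 27, 18 and 16 lay above all controls in Smad4iko 1 to 4, beside 23.9%, 19.0%, 21.6% and 26.95% of all genes. The counts were highest in Smad4iko 1 and 2.

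**Figure D1:**
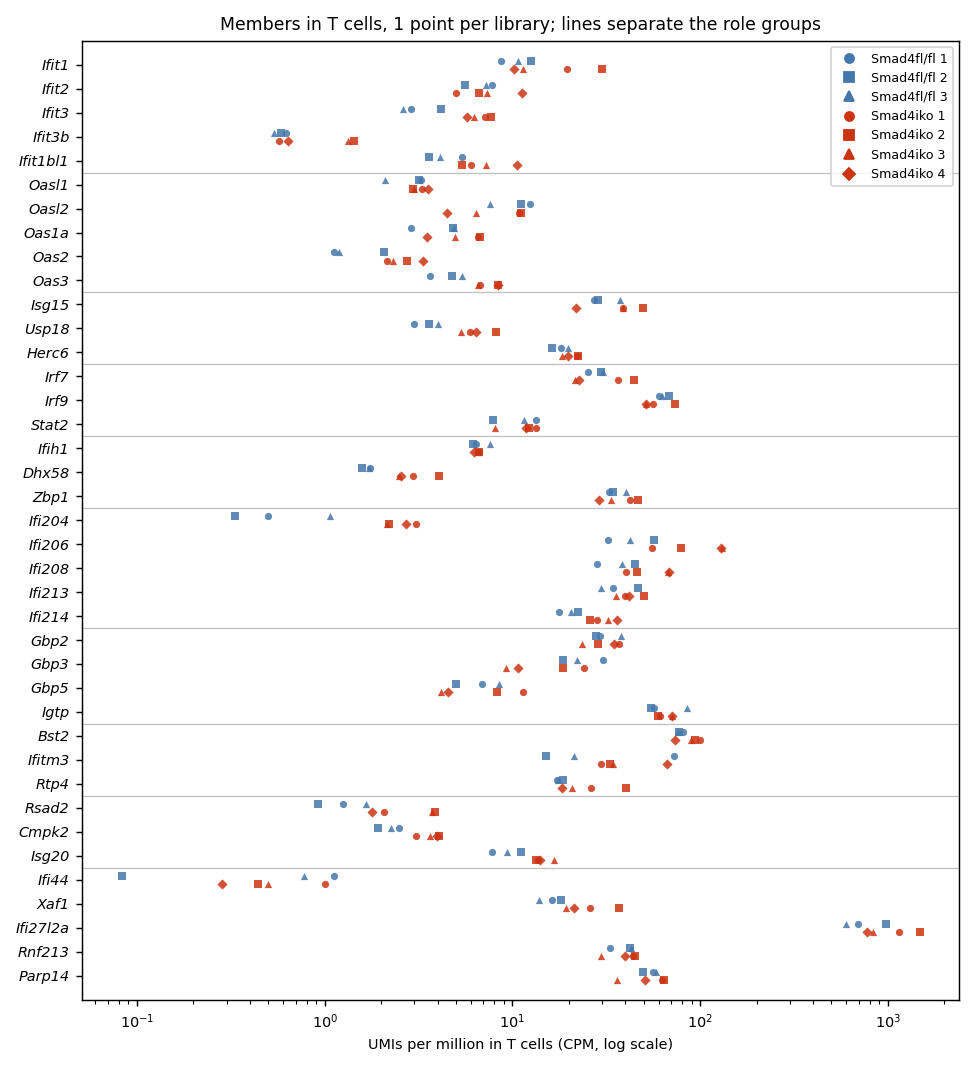
Level of each member in T cells, in CPM on a log axis, with 1 point per library (blue Smad4fl/fl, red Smad4iko) and lines between role groups. Ifit3, Usp18, Ifi204 and Isg20 are among the 12 members whose red points all lie to the right of the blue ones, and Gbp3 and Irf9 are among those that overlap.

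Among the IFIT proteins, which bind foreign RNA and stop its translation, all 4 tested members had positive differences (median log2 0.81). Ifit3 was at 2.87, 4.16 and 2.62 CPM in controls and at 7.16, 7.70, 6.21 and 5.70 CPM in Smad4iko. Its groups did not overlap, and its log2 difference was 1.11 (SE 0.26, edgeR adjusted p = 0.255). Ifit1bl1 stood at 5.37, 3.58 and 4.11 CPM against 6.02, 5.39, 7.21 and 10.5 CPM, and the nearest libraries of the groups, Smad4fl/fl 1 and Smad4iko 2, almost touched. Ifit1 was at 8.73, 12.6 and 10.7 CPM in controls and at 19.6, 29.9, 11.3 and 10.2 CPM in Smad4iko, so that Smad4iko 1 and 2 were high and Smad4iko 3 and 4 were within the controls. Ifit3b, with 21 and 46 UMIs in the groups, did not pass the filter.

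Several, but not all, proteins of the OAS family make the short oligoadenylates that activate the nuclease RNase L. In T cells 4 of 5 had positive differences (median log2 0.41). Oas3 was at 3.62, 4.75 and 5.36 CPM in controls and 6.73, 8.36, 6.54 and 8.33 CPM in Smad4iko, a log2 difference of 0.76 (SE 0.22, edgeR adjusted p = 0.389). Oasl2 went the other way in Smad4iko 3 and 4, with 6.38 and 4.49 CPM against 7.57 to 12.4 CPM in controls. ISG15 is a ubiquitin-like protein that Herc6 attaches in mice and Usp18 removes, and Usp18 also damps the type I interferon receptor. Usp18 was at 2.99, 3.58 and 3.99 CPM in controls and 5.94, 8.14, 5.30 and 6.41 CPM in Smad4iko. The groups did not overlap, and the log2 difference was 0.92 (SE 0.23, edgeR adjusted p = 0.298). Herc6 overlapped, at 16.3 to 19.8 against 18.4 to 22.3 CPM (log2 difference 0.26, SE 0.12, edgeR adjusted p = 0.535). Isg15 overlapped as well, at 27.1 to 37.2 against 21.9 to 49.5 CPM. Usp18 and Herc6 lie on chromosome 6, which also carries the Rosa26 locus, 8.17 and 55.4 megabases away. Alleles linked to the transgene and loss of Smad4 cannot be told apart for genes near that locus.

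The transcription factors of the receptor pathway gave small differences. Irf9 and Stat2 had log2 differences of -0.07 and 0.14. Irf7, the factor that amplifies interferon production, was at 36.3 and 44.7 CPM in Smad4iko 1 and 2 and at 21.5 and 22.5 CPM in Smad4iko 3 and 4, on both sides of the controls (25.3 to 30.5 CPM). Of the cytosolic sensors, Dhx58 did not overlap, at 1.58 to 1.75 against 2.48 to 4.07 CPM. Ifih1 (MDA5) was nearly level at 6.16 to 7.57 against 6.26 to 6.66 CPM. RNA and nucleotide effectors did not overlap in 3 of 3 cases. Rsad2 encodes viperin, which makes a chain-terminating nucleotide, and was at 0.916 to 1.67 against 1.78 to 3.85 CPM. Cmpk2, its neighbour, was at 1.92 to 2.50 against 3.08 to 4.07 CPM. Isg20, an exonuclease, was at 7.74, 11.2 and 9.36 CPM and at 13.8, 13.4, 16.6 and 14.0 CPM (log2 difference 0.68, SE 0.21, edgeR adjusted p = 0.407). Xaf1, a pro-apoptotic protein, was at 16.2, 18.2 and 13.8 CPM and at 25.9, 36.7, 19.2 and 21.4 CPM (log2 difference 0.74, SE 0.23, edgeR adjusted p = 0.407). The GTPases, many of them targets of interferon gamma, had a median log2 difference of 0.06 over 4 tested members, with Gbp3 at 18.6 to 30.4 against 9.19 to 23.9 CPM. Among the membrane proteins Rtp4 was above the controls in 3 of 4 Smad4iko libraries, while Bst2 (tetherin) and Ifitm3 overlapped.

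The HIN-200 family, a set of related proteins of which several bind DNA, encoded close together on chromosome 1 (chr1:173468485-173766943), showed another order of libraries. All 5 members had positive differences in T cells (median log2 0.67). Ifi206 was at 32.2, 57.1 and 42.3 CPM in controls and at 55.2, 78.8, 130 and 129 CPM in Smad4iko, highest in Smad4iko 3 and 4 (log2 difference 1.24, SE 0.38, edgeR adjusted p = 0.405). Ifi208 was at 28.3, 44.8 and 38.5 CPM and at 40.4, 46.2, 67.7 and 68.3 CPM. Ifi214 did not overlap, at 17.7, 22.5 and 20.5 CPM and 28.3, 26.0, 32.2 and 36.0 CPM (log2 difference 0.67, SE 0.19, edgeR adjusted p = 0.369). Ifi204 had the greatest log2 difference of the members in T cells, 2.00 (SE 0.42, edgeR adjusted p = 0.221), but rested on 26 and 127 UMIs.

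For summed levels, 10 members were set aside (Bst2, Ifitm3, Ifi27l2a, Gbp2, Rnf213, Isg20, Parp14, Igtp, Stat2 and Irf9), which left a list of 29, called inducible here. The division was not by level in T cells: Isg20 and Stat2, set aside, had means of 14.4 and 11.4 CPM in Smad4iko, below Ifi206 and Zbp1, which were kept, at 98.2 and 37.8 CPM. Over all 39 measured members, T cells summed to 1457, 1739 and 1392 CPM in controls and to 2043, 2478, 1705 and 1697 CPM in Smad4iko. The 10 set aside summed to 1106, 1332 and 1006 CPM against 1560, 1897, 1193 and 1188 CPM. In both sums Smad4iko 3 and 4 lay within the controls. The list of 29 summed to 352, 407 and 386 CPM in controls and to 483, 580, 512 and 508 CPM in Smad4iko, without overlap. The lack of overlap thus depends on which members are summed. The 5 HIN-200 genes summed to 113, 171 and 132 CPM against 167, 203, 268 and 278 CPM. The other 24 summed to 238, 236 and 254 CPM against 316, 377, 244 and 231 CPM. In this sum of 24 genes Smad4iko 1 and 2 lay above the controls, Smad4iko 3 within their range and Smad4iko 4 just below it. The sum does not describe each gene: Ifit3 and Usp18 were above all controls in every Smad4iko library, while Isg15 overlapped. No test was made of these sums.

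**Figure D2:**
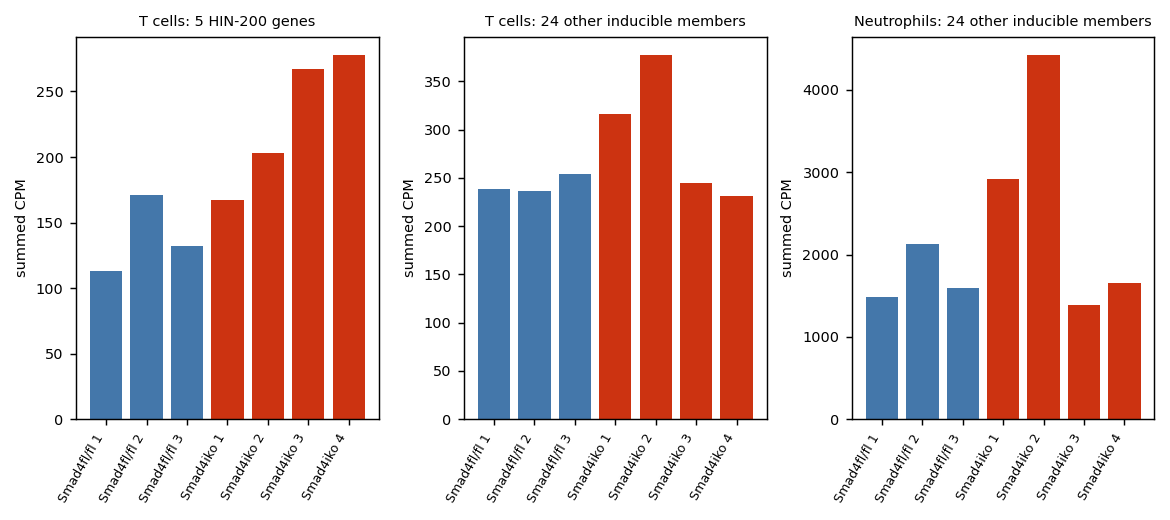
Summed CPM (bars, 1 per library) of the 5 HIN-200 genes in T cells and of the other 24 inducible members in T cells and in neutrophils, blue Smad4fl/fl and red Smad4iko. In T cells the 5 HIN-200 genes are highest in Smad4iko 3 and 4 (268 and 278 CPM), whereas the other 24 inducible members are highest in Smad4iko 1 and 2, which are also the highest in neutrophils (2922 and 4422 CPM).

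Whether few or all T cells carried the difference was asked with each cell thinned at random to 2000 UMIs, which gives all cells 1 depth (5595 control and 7509 Smad4iko cells; 50 and 93 were too shallow). A cell then held a mean of 0.712, 0.823 and 0.769 inducible UMIs in controls and 0.988, 1.187, 1.050 and 1.037 in Smad4iko. The share of cells with at least 1 inducible UMI was 42.2%, 46.4% and 46.2% in controls and 50.7%, 55.5%, 54.4% and 55.4% in Smad4iko. A cell with at least 5 such UMIs is called ISG-high here. ISG-high cells were 17 of 1255, 46 of 2228 and 37 of 2112 in controls, or 1.35%, 2.06% and 1.75%. They were 54 of 1898, 59 of 1385, 59 of 2010 and 59 of 2216 in Smad4iko, or 2.85%, 4.26%, 2.94% and 2.66%. The exact binomial 95% intervals ran from 0.791% to 2.74% over the control libraries and from 2.03% to 5.46% over the Smad4iko libraries, and cover counting error only. Without thinning, the shares were 11.0%, 11.9% and 19.5% against 20.9%, 26.2%, 19.7% and 22.0%, at medians of 4858 to 7338 UMIs per cell. ISG-high is a range of a score and not a type of cell: 252 cells lay at 4 UMIs and 118 at 5.

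The group difference in the T cell mean was 0.297 UMIs per cell, of which 0.109 (36.6%) lay in ISG-high cells and 0.188 (63.4%) in all other cells. Leaving out the ISG-high cells gave 0.610, 0.686 and 0.657 UMIs per cell in controls and 0.769, 0.911, 0.851 and 0.891 in Smad4iko, still without overlap. Leaving out the top 5% of each library gave 0.508 to 0.599 against 0.699 to 0.885. The split depends on where the line is drawn: cells with at least 3 UMIs carried 75.3% of the difference and cells with at least 8 carried 16.1%, cuts applied to this split after seeing the data. A rise in few cells and a small rise in all cells both move cells across a cut, so the split alone cannot tell them apart. What the values do show is that the groups stayed apart without the top 5% of cells. The HIN-200 genes accounted for 0.200 of the 0.297 UMIs. Without them, the share of T cells with at least 1 UMI was 31.3%, 29.9% and 33.4% in controls and 36.5%, 42.7%, 29.1% and 30.5% in Smad4iko, and ISG-high cells were 0.717%, 0.943% and 1.04% against 1.26%, 1.95%, 0.846% and 0.812%. For the 24 other genes, only Smad4iko 1 and 2 exceeded the controls on both measures.

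**Figure D3:**
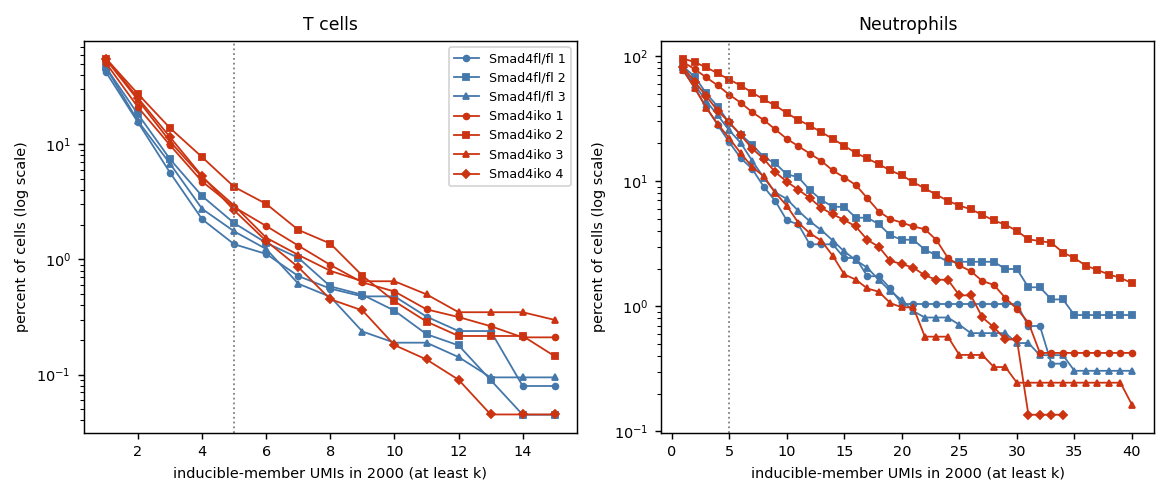
Percent of cells (log axis) with at least k UMIs of the 29 inducible members after thinning to 2000 UMIs, 1 line per library, with the dotted line at 5 UMIs. In T cells the red lines of all 4 Smad4iko libraries start above the blue ones, and in neutrophils only Smad4iko 1 and 2 stand apart, with 49.1% and 64.9% of cells at 5 or more.

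The genes that filled the ISG-high T cells were both HIN-200 and classical members. Ifi206 had a UMI in 68.6% of the 331 ISG-high cells and 11.8% of the other 12773, and Ifit1 in 35.0% and 1.21%. These shares describe the cells that the sum selected. Of ISG-high cells, 40.0% in controls and 31.2% in Smad4iko were CD4 T cells, beside 38.9% and 30.6% of the other T cells. The inducible mean did not overlap within CD4 T cells (0.733 to 0.791 against 1.03 to 1.25) or within CD8 T cells (0.679 to 0.868 against 1.00 to 1.21). In CD4 T cells 9 members did not overlap, all higher, beside 2.48% of all genes higher and 4.82% lower. In CD8 T cells 5 did not overlap, all higher, beside 1.59% and 5.32%. No member was called in either subset by edgeR's test (lowest adjusted p 0.760 and 0.861; 0% of all genes called). At an unadjusted p under 0.05, 13 members were higher in CD4 T cells, beside 4.07% of all genes, and 10 in CD8 T cells, beside 3.13%. None was lower, beside 2.5% and 1.89%. DESeq2 called 0 members in both, and 0.0992% and 0.0285% of all genes.

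Free RNA from other cells can enter droplets. Neutrophil markers in T cells summed to 33.3 to 88.1 CPM in controls and 156 to 563 CPM in Smad4iko. Of that list's 8 markers, 7 had a higher mean in Smad4iko and none was at 0. This difference of 238 CPM is 0.121% of the level of the same 8 markers in Smad4iko neutrophils. The difference of Ifit3 in T cells was 5.42% of its level in those neutrophils, that of Usp18 26.3%, and Ifi206 and Ifi214 were lower in neutrophils than in T cells. Isg15 and Ifitm3 had T cell differences of 0.595% and 0.268% of their neutrophil levels. The part of neutrophil RNA in these differences was not tested further. Thinned alveolar macrophages of the same libraries held 0% to 0.391% of ISG-high cells, where the counts of 0 of 936 and 0 of 650 cells allow, at 3 counts of the total, up to 0.321% and 0.462%. Before thinning they had medians of 7647.5 to 14903.5 UMIs per cell, against 4858.5 to 7337.5 in T cells. Free RNA in T cells therefore cannot be read from this share.

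Neutrophils carried the highest mean inducible sum of the 11 cell types, and their Smad4iko libraries fell on both sides of the control range. The inducible list summed to 1539, 2217 and 1709 CPM in controls and to 3006, 4535, 1453 and 1748 CPM in Smad4iko. Isg15 alone was at 726, 907 and 633 CPM and at 1431, 1929, 434 and 472 CPM. Smad4iko 1 and 2 were thus above the controls, and Smad4iko 3 and 4 were below them for Isg15. ISG-high neutrophils were 20.5%, 29.2% and 25.5% in controls (413 of 1626 cells) and 49.1%, 64.9%, 22.0% and 29.6% in Smad4iko. Thinning left out 414 control neutrophils, 300 of them among the 653 of Smad4fl/fl 2, and 625 Smad4iko neutrophils. Of the difference in means, 1.91 UMIs per cell, ISG-high cells carried 2.09 and the remaining cells -0.189. The share carried by ISG-high cells exceeds the whole because fewer cells remained below 5 UMIs. The cells below 5 UMIs had means of 1.48, 1.75 and 1.53 in controls and 1.91, 2.26, 1.43 and 1.56 in Smad4iko, so that they too were higher in Smad4iko 1 and 2. In those libraries ISG-high cells were 464 of 945 and 1232 of 1898 cells and not a small tail. Without Smad4iko 2 the difference in means was 0.683 UMIs per cell, of which ISG-high cells carried 0.804. No member was called by edgeR's test (lowest adjusted p 0.555; 0% of all genes called). At an unadjusted p under 0.05, 3 of 34 members were higher and 0 lower, beside 3.59% and 3.73% of all genes, and DESeq2 called 0 members and 0.573% of all genes. The 3 members without overlap, all higher, stood beside 2.65% of all genes, and 0 were lower without overlap, beside 5.27%. They were Oasl2 (137 to 233 against 290 to 481 CPM), Dhx58 (2.01 to 3.60 against 4.09 to 9.89 CPM) and Ifitm3, a restriction factor at the endosome (663 to 1015 against 1234 to 2905 CPM).

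**Figure D4:**
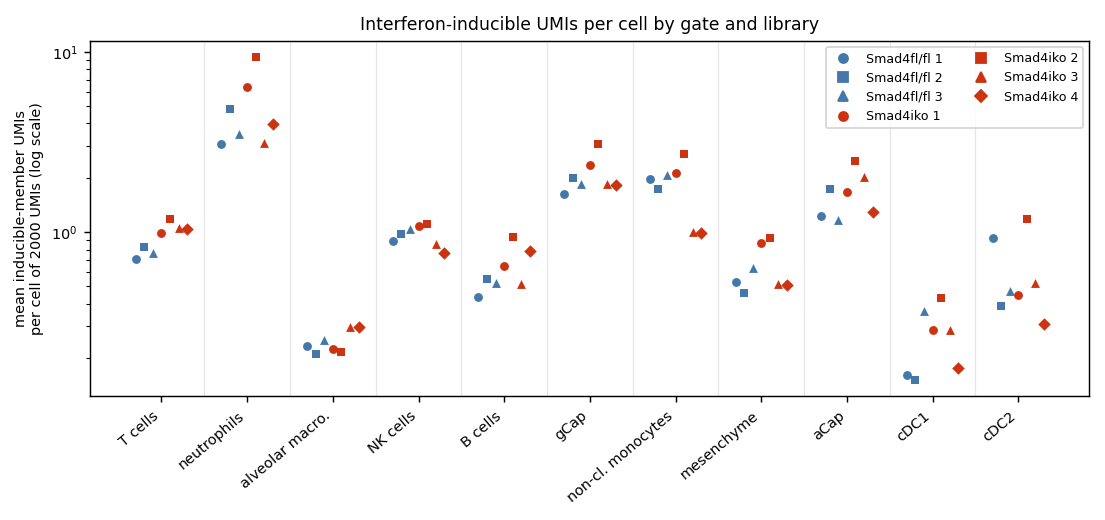
Mean UMIs of the 29 inducible members per cell thinned to 2000 UMIs (log axis) in 11 cell types, 1 point per library. T cells are the only type in which all 4 red points lie above the blue ones. Without the HIN-200 genes (not drawn), Smad4iko 3 and 4 were at 0.479 and 0.457 in T cells, not above the controls (0.469 to 0.500). Smad4iko 2 is the highest in T cells, neutrophils, B cells, gCap, non-classical monocytes and mesenchyme.

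Across the 11 cell types, Smad4iko 1 and 2 both exceeded all controls for the summed inducible list in 8, and Smad4iko 3 and 4 did so in 2. In general capillary endothelium (gCap) the list summed to 746, 909 and 875 CPM in controls and 1103, 1445, 915 and 838 CPM in Smad4iko. In this type 25 and 29 of 34 members lay above all controls in Smad4iko 1 and 2, and 11 and 5 in Smad4iko 3 and 4, beside 21.3%, 26.4%, 30.4% and 32.3% of all genes. In mesenchyme, 17, 18, 7 and 4 of 23 members did, beside 13.9%, 17.0%, 34.6% and 28.95% of all genes. In non-classical monocytes 13, 19, 0 and 1 of 27 did, beside 27.5%, 24.7%, 25.4% and 30.3%. Non-classical monocytes of Smad4iko 3 and 4 instead had 17 and 15 members below all controls, beside 28.6% and 24.6% of all genes. Ifi27l2a, a gene strongly induced by type I interferon, showed this order in gCap, at 67.1, 69.8 and 69.5 CPM in controls and 270, 182, 58.1 and 41.5 CPM in Smad4iko. Its log2 difference was positive in 11 of 11 cell types, from 0.42 to 1.75, and none passed edgeR's test.

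**Figure D5:**
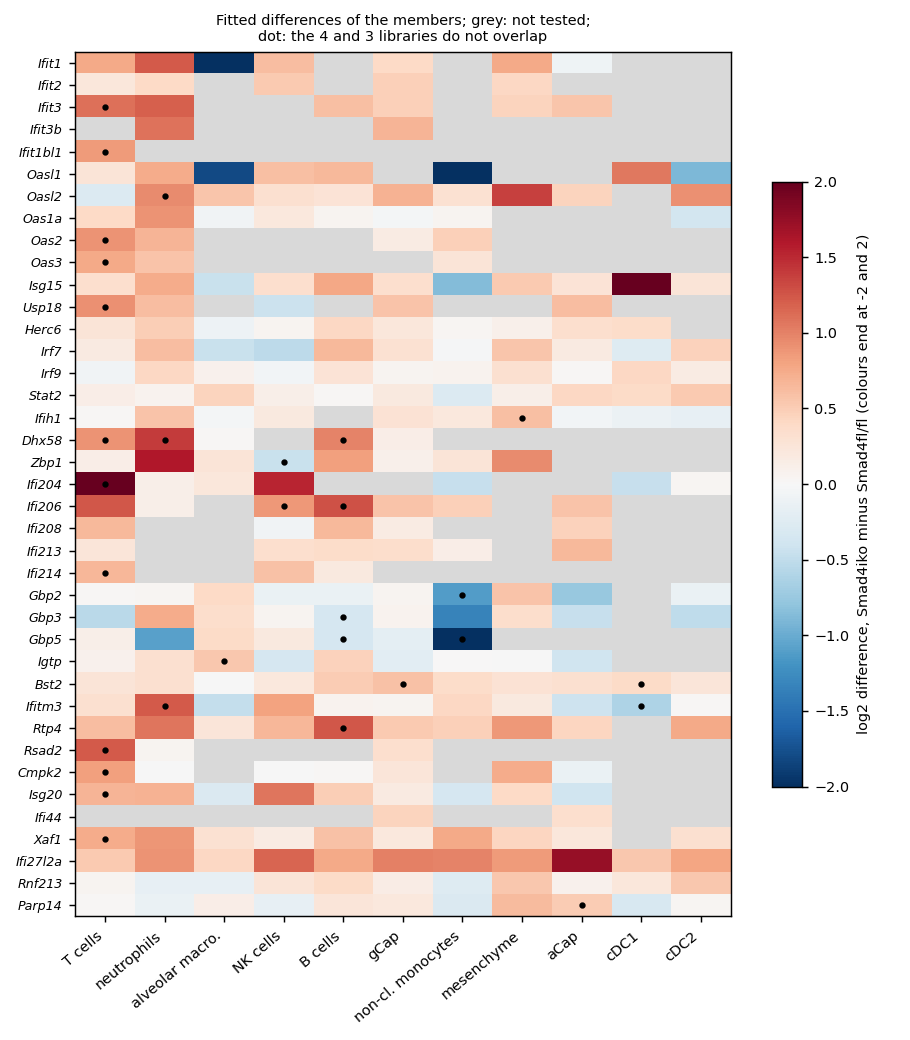
Fitted log2 differences (Smad4iko minus Smad4fl/fl) of the members, rows, in the 11 cell types, columns; red is higher in Smad4iko, grey was not tested, and a dot marks groups that do not overlap. Ifi27l2a and Rtp4 are red wherever they were tested, whereas Gbp2 and Gbp5 are blue in non-classical monocytes.

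Few members stood apart between the groups outside T cells, and edgeR's test called 0 members in each of the 9 cell types besides T cells and neutrophils. B cells had 3 members higher without overlap and 2 lower, beside 1.82% and 7.65% of all genes. The 2 lower were the GTPases Gbp3 and Gbp5. Of the 4 GTPases tested in B cells, 3 had negative differences (median log2 -0.23). Ifi206 in B cells was at 27.4, 31.3 and 26.1 CPM and at 35.1, 61.4, 61.4 and 92.5 CPM (log2 difference 1.27, SE 0.29, edgeR adjusted p = 0.399; DESeq2 adjusted p = 0.0177). Rtp4, a zinc-finger protein that binds viral RNA, was at 5.59, 7.54 and 5.69 CPM and at 13.4, 20.2, 8.55 and 14.4 CPM in B cells. In NK cells Ifi206 was higher without overlap (31.6 to 44.8 against 51.0 to 84.1 CPM) and Zbp1, a sensor of Z-form nucleic acid, was lower (66.4 to 71.6 against 38.5 to 59.1 CPM), beside 2.59% and 6.09% of all genes. In non-classical monocytes Gbp5, a GTPase of the antimicrobial response, was at 53.0, 18.5 and 42.1 CPM in controls and at 3.88, 3.89, 9.11 and 7.85 CPM in Smad4iko (log2 difference -2.19, SE 0.43, edgeR adjusted p = 0.397; DESeq2 adjusted p = 0.0374). Gbp2 was lower there as well, at 54.8 to 99.3 against 29.2 to 43.3 CPM, and 4.38% of all genes were lower without overlap. Guanylate-binding proteins are strongly induced by interferon gamma. Smad4fl/fl 1 contributed only 40 cells of this type.

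Of the remaining types, cDC2 held no such member and the others 1 or 2 each. In gCap Bst2 was at 368, 407 and 339 CPM and at 632, 527, 598 and 489 CPM (3.37% of all genes higher without overlap). In Car4-high capillary cells (aCap) Parp14 was at 86.3 to 117 against 130 to 159 CPM (5.58%), and in mesenchyme Ifih1 was at 9.75 to 18.7 against 18.9 to 46.1 CPM (1.46%). In alveolar macrophages Igtp was at 3.74 to 3.92 against 4.66 to 7.36 CPM (6.28%), and only 25 members passed the filter. In cDC1 Bst2 was higher, at 63.1 to 83.3 against 85.9 to 101 CPM (1.81%), and Ifitm3 was lower, at 144 to 182 against 93.6 to 129 CPM (2.41%). In cDC2 no member stood apart (2.83% higher and 2.27% lower over all genes).

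Counts at an unadjusted p under 0.05 in the same 9 types varied between types. In alveolar macrophages 3 of 25 members were higher and 2 lower, beside 3.43% and 3.15% of all genes. NK cells had 4 of 31 higher and 1 lower, beside 3.9% and 3.43%. B cells had 6 of 28 higher and 0 lower, beside 3.56% and 3.09%. In gCap 4 of 34 were higher and 0 lower, beside 2.14% and 2.06%. Non-classical monocytes had 0 of 27 higher and 5 lower, beside 4.36% and 4.55%. Mesenchyme had 2 of 23 higher and 0 lower (1.52% and 1.64%), and aCap 2 of 26 higher and 0 lower (4.18% and 3.21%). In cDC1 1 of 13 was higher and 1 lower (1.45% and 1.35%), and in cDC2 0 of 18 were (2.99% and 2.42%). edgeR's adjusted calls over all genes were 0.0174% in alveolar macrophages, 0.0303% in NK cells, 0.00951% in gCap, 0.0159% in cDC2 and 0% in the other 5. DESeq2 called 1 member in B cells and 1 in non-classical monocytes, where it called 0.4% and 0.109% of all genes. It called 0 members in the other 7 types, beside 0.306% of all genes in alveolar macrophages, 0.168% in NK cells, 0.0599% in gCap, 0.0425% in mesenchyme, 0.03% in aCap, 0.0193% in cDC1 and 0.0192% in cDC2. No overlap ran lower in 2.03% of genes in alveolar macrophages, 2.35% in gCap, 3.38% in mesenchyme and 2.97% in aCap, and higher in 6.05% in non-classical monocytes, with 0 members in each of these.

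Whether the T cell differences were themselves different from those of other types was tested with limma on the within-library difference of log2 CPM. No member passed in any of the 10 comparisons with T cells, where 0.00955% of all genes did against alveolar macrophages, 0.015% against cDC1 and 0% against the other 8. The lowest adjusted p was 0.0939, for Ifi204 against alveolar macrophages, with a difference of 1.65 (SE 0.18) on the log2 scale. At an unadjusted p under 0.05, 3 of 28 members differed against B cells (8.29% of all genes), 8 of 31 against NK cells (8.59%), 6 of 25 against alveolar macrophages (8.25%), 3 of 33 against neutrophils (8.45%) and 6 of 27 against non-classical monocytes (7.94%). Against gCap 5 of 32 did (6.22%), against aCap 4 of 25 (7.76%), against mesenchyme 2 of 23 (3.61%), against cDC1 2 of 13 (5.05%) and against cDC2 2 of 18 (6.4%). The data therefore do not show that the member differences of T cells differ from those of other cell types, and a p above the threshold does not show that they are alike.

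Other genes of the interferon pathway were read from a list of 80 measured genes in the same T cell fit. Of the 69 tested, 0 were called in either direction, beside 0.0423% of all genes. At an unadjusted p under 0.05, 8 were higher and 3 lower, beside 5.89% and 3.64% of all genes. Interferon ligands were scarce: Ifna1, Ifna2, Ifna4, Ifna5, Ifnb1, Ifnl2 and Ifnl3 had 0 UMIs in T cells, so they were not detectable at this depth. Ifng, the ligand of the gamma receptor, was at 5.24 to 6.08 CPM in controls and at 4.01, 2.42, 8.86 and 9.40 CPM in Smad4iko, so that it was lowest in Smad4iko 1 and 2. Of the receptors, Ifnar1 was at 128, 123 and 158 CPM and at 164, 155, 36.6 and 46.1 CPM. Ifngr1 was at 834, 731 and 941 CPM and at 833, 826, 297 and 318 CPM. Both were low in Smad4iko 3 and 4 alone, the libraries that also stood apart in the rest of the transcriptome. The kinase Jak1 overlapped, at 587 to 655 against 417 to 589 CPM. Among 44 tested genes induced by interferon that are not members, 33 had positive differences, 7 were higher without overlap and 1, Nlrc5, was lower. Over all 69 pathway genes tested, 9 were higher without overlap and 5 lower, beside 4.34% and 5.37% of all genes. The 5 were the receptor chain Ifngr2, the kinase Jak2, the transcription factor Irf8, Pias1 and Nlrc5. Trim30a, a TRIM-family protein, was at 42.1, 40.7 and 37.5 CPM and at 53.9, 62.0, 47.5 and 59.9 CPM (log2 difference 0.55, SE 0.12, edgeR adjusted p = 0.249). Cxcl10, a chemokine that draws T cells, was at 7.33 to 9.61 CPM and at 23.4, 17.9, 10.6 and 11.6 CPM (log2 difference 0.98, SE 0.25, edgeR adjusted p = 0.301).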

How the data were processed

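Gene counts per cell barcode were deposited by the authors as raw UMI counts; per the file headers they come from Cell Ranger 6.1.1, and per the submitters' processing notes fastp, UMI-tools and mm10 were also named, with no role given. Barcodes (55671, each with at least 500 UMIs) were kept with at least 300 genes, 600 UMIs and at most 20% mitochondrial UMIs. Scrublet in scanpy 1.11.5 marked 1244 doublets (1.67% to 3.74% per library), which were removed. Library pairs shared 12 to 29 barcodes. A cell joined a type when it held at least 3 of the 8 markers of 1 list, and more than of any of the other 21 lists. Counts were summed per library and type and tested with edgeR 4.0.16 (quasi-likelihood, TMM, Benjamini-Hochberg adjustment over all genes tested, threshold 0.05) in R 4.3.3. DESeq2 1.42.0 was an alternative, and limma 3.58.1 (prior count 2) compared effects between types. Steps were tested on simulated data. CPM are counts per 1000000 UMIs of that library and type. The members and lists were chosen with earlier results of these data known. Named were all members past the threshold, T cell members of at least 5 CPM whose groups did not overlap, Usp18 and Herc6, and other members by role; members below that level were added after their values were seen. The sample numbers were not used as pairs in the main test.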

Additional observations from a re-analysis of the deposited data

Results flagged for a closer look

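Of 80 groups of 4 Smad4iko libraries, 8 held a library far from the other 3, where chance gives about 5%. Smad4iko 2 stood apart in cDC2, at 4310 CPM summed over all members (next 1997) and 759 CPM for the inducible list (next 279). It also had the highest share of ISG-high T cells, 4.26% (next 2.94%), and the highest Ifitm3 in neutrophils, 2905 CPM (next 1448). Smad4iko 3 stood apart in the share of ISG-high cDC1, 2.86% (next 0%), which is 1 of 35 cells, in Isg20 in T cells, 16.6 CPM (next 14.0), in Gbp3 in B cells, lowest at 18.9 CPM (next 26.9), and in Ifitm3 in cDC1, 129 CPM (next 98.1). Ifitm3 went in opposite directions in 2 cell types, with a log2 difference of 1.22 in neutrophils and -0.62 in cDC1, every library on its side of the controls. The difference between those cell types was not tested.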

How the results depend on the processing

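For 36 named pairs of member and cell type, 611 refits under 17 settings gave 601 with the same call, 10 that newly passed the threshold and 0 reversed. Most of these pairs were picked because their groups did not overlap in these same data, so a reversed sign was unlikely in advance. No pair passed in the main fit, so the same call means still not past the threshold. Members called went from 0 to 2 in T cells under DESeq2 (Ifit3 and Ifi204), and to 1 in B cells and 1 in non-classical monocytes under DESeq2. Without the filter on low counts 1 member was called in B cells, 1 in non-classical monocytes and 1 in aCap. A covariate for Smad4iko 3 and 4 gave 1 in gCap. With the replicate block, 1 member was called in non-classical monocytes (Gbp5, log2 difference -2.43, edgeR adjusted p = 0.0147) and 1 in aCap (Ifi27l2a, 2.11, edgeR adjusted p = 0.0212). Over 13 fits, deviations from the group means correlated at 0.033 to 0.509 for the libraries with number 1. The range was -0.193 to 0.022 for number 2 and -0.029 to 0.524 for number 3. Unlike numbers also correlated, such as Smad4fl/fl 1 and Smad4iko 2 in T cells (0.181). Whether the numbers pair the samples cannot be told from these values. For the settings other than DESeq2 the share of all genes called was not counted, so these member calls have no background beside them. The cause of the changed calls was not tested. The ratio of ISG-high shares in T cells, 1.84, was 1.35 without the HIN-200 genes (added after seeing the data) and 1.63 to 2.04 leaving out each library. The percent of the T cell difference in ISG-high cells, 36.6, was 32.3 to 42.8 leaving out each library, 31.4 without HIN-200, 46.7 with Smad4iko 1 and 2 only, 75.3 at a cut of 3 UMIs and 16.1 at a cut of 8, the last 4 added after seeing the data. In neutrophils it was 110, 107 to 118 leaving out each library, and 102 at a cut of 8, and the ratio of shares there, 1.65, was 1.34 without Smad4iko 2. Members of a few UMIs, such as Ifi204, Rsad2 and Dhx58, are limited by depth.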
